A study of Mus musculus with 12 samples.

Results

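The genes of the epidermal growth factor (EGF) family were examined in W-20 cells, a mouse bone marrow stromal cell (BMSC) line, as 7 ligands (Areg, Ereg, Hbegf, Tgfa, Epgn, Btc and Nrg1) and 3 ERBB receptors (Egfr, Erbb2 and Erbb3). These 10 genes were taken by symbol from the 56980 genes of the expression matrix. The symbol Nrg1 matched a further annotated locus of 186 bases that had 0 counts in all 12 libraries, so the values of Nrg1 are those of the main locus. Hbegf and Nrg1 were the most abundant ligand transcripts per length, Erbb2 was the most abundant receptor transcript, and Areg, Tgfa and Egfr were at or near 0 in nearly all libraries. PTH was accompanied by higher Hbegf and Nrg1 in both cell lines and by higher Ereg in Y428F cells, whereas Erbb3 was the member that differed most between the lines, at 4.15-fold higher in Y428F cells with vehicle. In WT cells Ereg was at log2 1.13 with PTH and did not pass the main test, a call that depended on the fit. The difference in the Ereg response between the lines did not pass the test either.

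EGF-family ligands are mostly made as membrane-bound precursors that are released by metalloproteases such as ADAM17. They bind ERBB receptors, which pair with each other on ligand binding and signal through the ERK and PI3K-AKT routes. ERBB2 has no known ligand of its own and acts as a partner, whereas ERBB3 binds neuregulins and has little kinase activity, so that the pair of both receptors forms a neuregulin receptor. In bone, amphiregulin (Areg) is known as a ligand gene that PTH induces in osteoblastic cells.

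The 12 libraries form 4 groups of 3, namely WT and Y428F cells with PTH (50 nM) or PBS vehicle for 2 hours. Y428F cells were a stable W-20 line made by introducing Flag-tagged YAP, the transcriptional coactivator of the Hippo pathway, with the tyrosine named in Y428F changed to phenylalanine, followed by selection of positive clones. The group names come from the library titles. The genotype field of the Y428F libraries reads WT and their titles name Y428F alone, whereas the study describes the line it sequenced as carrying S381A together with Y428F. The line is called Y428F throughout, after the titles. A line with introduced unmutated YAP was not analysed here, so the Y428F change, the S381A change, the introduced YAP and the selection of a clone cannot be told apart. Nothing in the labels says that libraries of a group came from separate cultures, so the p-values measure the spread between these samples, which may be technical. In a bulk sample, fewer expressing cells and less RNA per cell cannot be told apart. Library totals ranged from 17127897 to 19057319 counts.

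The cells carried most of the stromal transcripts of their label. Col1a1, Col1a2, Pdgfrb, Cxcl12 and Runx2 had more than 1000 counts in every library, and Pdgfra had 315 to 1909 counts, whereas the marrow stromal marker Lepr had 1 to 21 counts and the osteoblast genes Sp7 and Alpl had at most 7 counts in any library. Of the markers of other cell types, Adipoq, Epcam and Cd3e had 0 counts in all 12 libraries, but the adipocyte marker Fabp4 had 110 to 635 counts, the endothelial marker Cdh5 had 6 to 162, the epithelial marker Krt8 had 2 to 80 and the leukocyte marker Ptprc had 6 to 64.

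Levels of different genes were compared as CPM (library-scaled counts from edgeR, where 1 CPM stood for 16.3 to 19.8 counts) divided by the kilobases of annotated exon. Erbb2 stood first in all 4 groups, at 20.1 ± 1.24 CPM per kilobase in WT cells with vehicle (SD, n = 3), and its libraries did not overlap those of the next gene in any group. Nrg1 and Hbegf followed at 4.78 ± 0.528 and 4.46 ± 0.498 CPM per kilobase in WT cells with vehicle, where their libraries overlapped. In the other 3 groups Hbegf stood above Nrg1 without overlap, at 11.7 ± 1.06 against 6.78 ± 0.556 CPM per kilobase in Y428F cells with PTH.

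The remaining members were lower. Erbb3 and Btc were at 0.713 ± 0.119 and 0.680 ± 0.0524 CPM per kilobase in WT cells with vehicle, and their libraries overlapped. Ereg and Epgn followed at 0.250 ± 0.175 and 0.171 ± 0.0764 CPM per kilobase, again with overlap. In Y428F cells Erbb3 stood next at 2.96 ± 0.274 CPM per kilobase with vehicle, clear of its neighbours in the order, and Ereg rose to 1.96 ± 0.165 CPM per kilobase with PTH, below Erbb3 and above Btc without overlap. The order of the genes at the bottom rested on few counts and is not resolved.

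**Figure D1:**
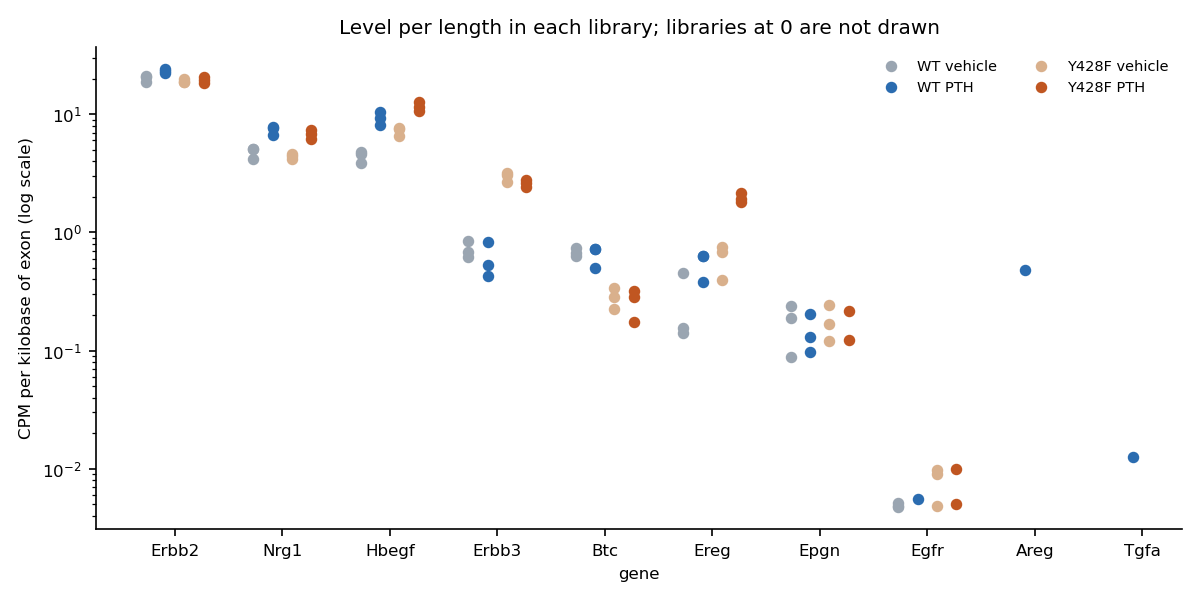
Level per length of each member in each library, as CPM per kilobase of exon on a log axis, with colours for the 4 groups and libraries at 0 not drawn. Erbb2 lies highest at about 20 CPM per kilobase, Egfr lies lowest among the genes seen in most libraries, and the Y428F libraries lie above the WT libraries for Erbb3 and below them for Btc.

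Summed over the 3 receptors, the level per length was 20.9 ± 1.31 CPM per kilobase in WT cells with vehicle and 22.1 ± 0.721 in Y428F cells with vehicle (SD, n = 3), and these libraries overlapped. Erbb2 made up 96.6% ± 0.449 of that sum in WT cells with vehicle and 86.6% ± 0.985 in Y428F cells with vehicle. Erbb3 made up 3.41% ± 0.450 and 13.4% ± 0.976, respectively, without overlap between the lines. The summed level of the 7 ligands was 10.3 ± 0.954 CPM per kilobase in WT cells with vehicle and 18.2 ± 1.09 with PTH, and it was 12.7 ± 0.228 and 20.8 ± 1.24 in Y428F cells, so the PTH libraries lay above the vehicle libraries of their own line. Hbegf and Nrg1 together held most of each ligand sum. Ereg held 9.46% ± 1.07 of it in Y428F cells with PTH and 4.80% ± 1.51 with vehicle. In WT cells Ereg held 3.00% ± 0.666 with PTH and 2.54% ± 2.03 with vehicle, where the first library was highest (4.89, 1.28 and 1.45%).

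**Figure D2:**
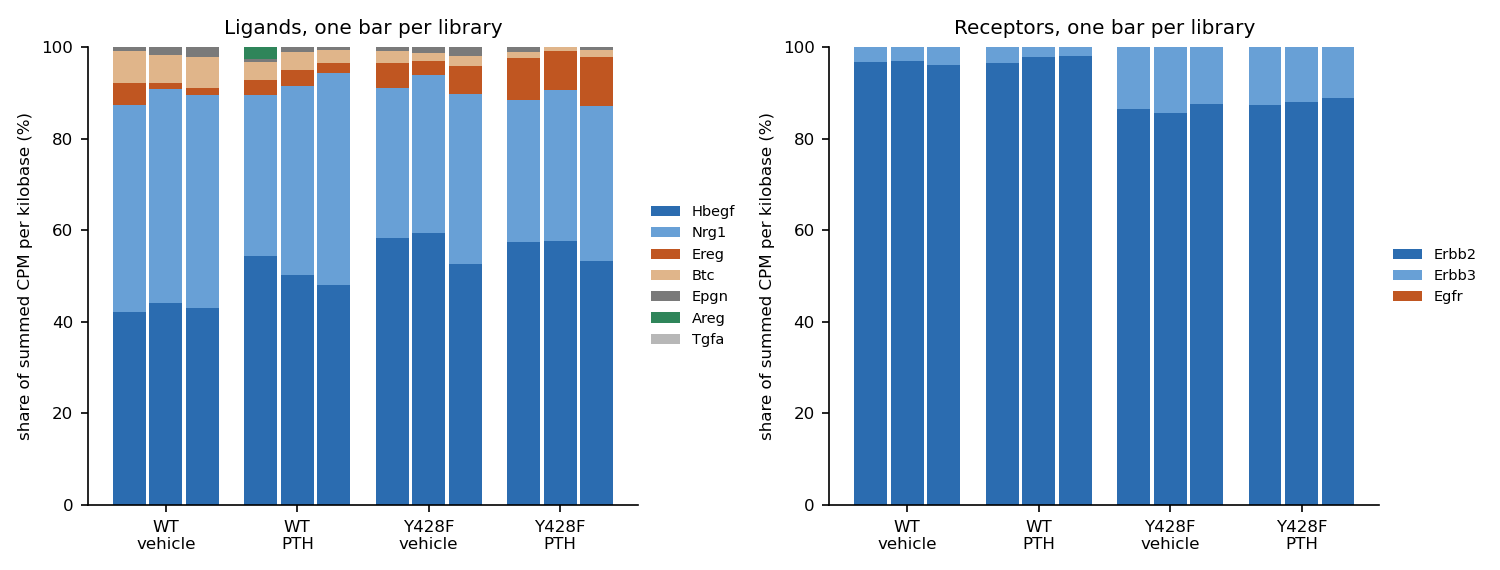
Share of the summed level per length (%) that each ligand (left) and each receptor (right) held, with 1 stacked bar for each library in the 4 groups. Hbegf and Nrg1 fill most of every ligand bar, and Erbb3 fills about 2 to 4% of the receptor bars of WT cells and 11 to 14% of those of Y428F cells.

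Among the ligands, heparin-binding EGF-like growth factor (Hbegf), which binds EGFR and ERBB4, rose with PTH in both lines. Its levels were 10.3, 12.8 and 12.3 CPM in WT cells with vehicle and 27.5, 24.6 and 21.7 CPM with PTH. In Y428F cells they were 19.9, 20.1 and 17.4 CPM with vehicle and 30.6, 33.9 and 28.3 CPM with PTH. The PTH libraries all exceeded the vehicle libraries of their line, and the Y428F vehicle libraries lay between the WT groups. The change was 2.09-fold in WT cells (log2 1.07, SE 0.109, edgeR quasi-likelihood adjusted p = 3.35e-05) and 1.62-fold in Y428F cells (log2 0.69, SE 0.103, adjusted p = 1.12e-04).

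Nrg1, the neuregulin ligand of ERBB3 and ERBB4, moved in the same direction. It was at 45.0, 55.3 and 54.2 CPM in WT cells with vehicle and at 72.4, 82.5 and 84.4 CPM with PTH. In Y428F cells it was at 45.3, 47.6 and 49.6 CPM with vehicle and at 66.9, 78.9 and 73.2 CPM with PTH. PTH and vehicle libraries did not overlap in either line, whereas the 2 lines overlapped under each treatment. The rise was 1.56-fold in WT cells (log2 0.64, SE 0.0893, edgeR quasi-likelihood adjusted p = 4.49e-04) and 1.54-fold in Y428F cells (log2 0.62, SE 0.0818, adjusted p = 3.01e-05).

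Ereg, the EGFR and ERBB4 ligand epiregulin, was a low transcript with the largest fold in Y428F cells. WT cells with vehicle had 38, 11 and 13 counts and WT cells with PTH had 48, 46 and 29. Y428F cells had 55, 35 and 61 counts with vehicle and 146, 152 and 173 with PTH. The 3 Y428F PTH libraries stood above all others, and the WT groups overlapped through the first vehicle library. The rise was 3.23-fold in Y428F cells (log2 1.69, SE 0.267, edgeR quasi-likelihood adjusted p = 2.02e-04). In WT cells the difference was log2 1.13 (SE 0.410) and did not pass the test (edgeR adjusted p = 0.0966). This call depended on the fit: the adjusted p was 0.0372 when all 12 libraries shared 1 fit and 0.00635 without the first WT vehicle library, where the log2 difference was 1.89, within a range of 0.0048 to 0.284 over 13 alternatives.

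The other ligands gave no change with PTH that passed the test. Betacellulin (Btc), a ligand of EGFR and ERBB4, had 34 to 40 counts in WT cells with vehicle and 25 to 36 with PTH, and 13 to 18 and 9 to 17 counts in Y428F cells. Epigen (Epgn) had between 0 and 8 counts in every library. Tgfa had 1 count in a single WT PTH library and 0 in the other 11. Areg had 10 counts in the first WT PTH library and 0 in the other 11, so that its values rested on 1 library, without which it could not be tested. It did not pass the test with PTH in WT cells (edgeR adjusted p = 0.182) or between the lines with PTH (adjusted p = 0.0764), where it was called with no filter on low counts (adjusted p = 0.0410) and without the second or the third WT PTH library (adjusted p = 0.0460 and 0.0406), on the same 10 counts. That library held 7 genes with at least 10 counts and 0 in the other 11 libraries, against 0 to 2 in each other library, and the part of this in the Areg value was not tested. A count of 0 allowed up to 3 counts, or 0.152 to 0.185 CPM, for counting error only.

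Among the receptors, Erbb2 varied little between groups. It was at 95.6, 107 and 105 CPM in WT cells with vehicle and at 119, 124 and 114 CPM with PTH. In Y428F cells it was at 101, 96.5 and 95.7 CPM with vehicle and at 93.2, 105 and 100.4 CPM with PTH. The WT PTH libraries were the 3 highest and the other 3 groups overlapped. The rise in WT cells was 1.16-fold (log2 0.22, SE 0.0632, edgeR adjusted p = 0.0428), and it did not pass the test in 7 of 13 alternatives, among them scaling by library totals (log2 0.16, adjusted p = 0.120), leaving out any 1 WT vehicle library (adjusted p = 0.0590 to 0.0828) or the first or second WT PTH library (adjusted p = 0.122 and 0.141), over a range of 0.0264 to 0.141. In Y428F cells the difference was log2 0.03 (SE 0.0615, adjusted p = 0.849), with a sign that turned under library totals.

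Erbb3 had no called response to PTH. Its levels were 3.70, 4.09 and 5.10 CPM in WT cells with vehicle and 5.01, 3.198 and 2.56 CPM with PTH. In Y428F cells they were 18.5, 19.11 and 16.0 CPM with vehicle and 15.9, 16.8 and 14.8 CPM with PTH. All 6 Y428F libraries were above all 6 WT libraries, and within each line the treatments overlapped. Egfr, the receptor of Hbegf, Ereg and Btc, had 0 to 2 counts in every library, 12 in all, and no fold is given. Erbb4, which binds Nrg1, Hbegf, Ereg and Btc, was not among the members and had at most 0.393 CPM in any library.

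**Figure D3:**
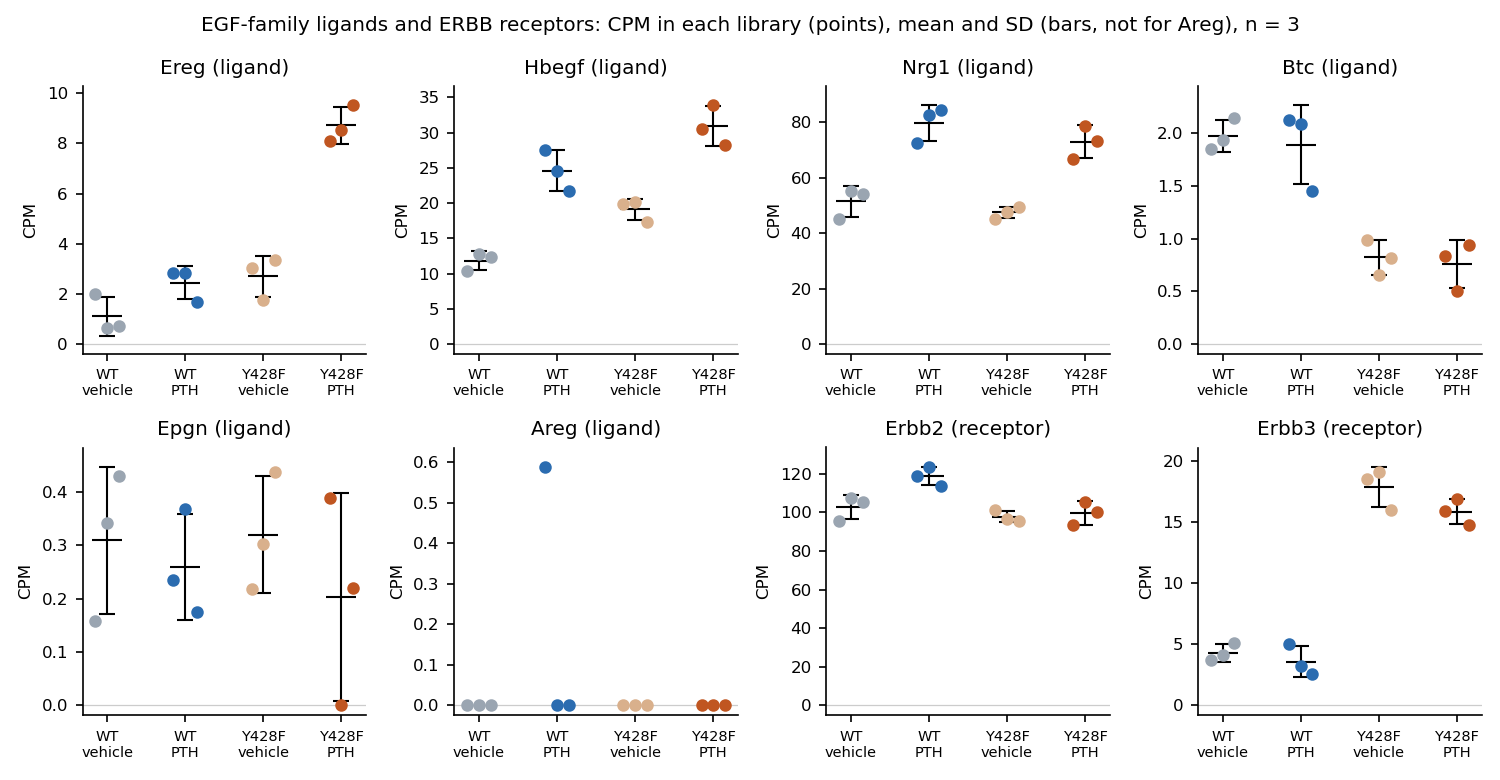
CPM of 8 members in each of the 12 libraries (points), with the mean and SD of each group of 3 (bars, left out for Areg, which was above 0 in 1 library); each panel has its own axis. PTH libraries lie above vehicle libraries of the same line for Hbegf and Nrg1, Y428F libraries lie above WT libraries for Erbb3, and the 3 Y428F PTH libraries stand alone for Ereg.

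With PTH, 3 members were higher and 0 lower of 8 tested in WT cells (Hbegf, Nrg1 and Erbb2), beside 6.88% higher and 4.91% lower of the 15583 genes tested. In Y428F cells 3 were higher and 0 lower of 9 tested (Ereg, Hbegf and Nrg1), beside 6.61% higher and 5.78% lower of 17691 genes. Scaling by library totals changed the balance of all called genes, of which 58.4% were higher in WT cells by the main scaling and 38.0% by library totals, with 53.4% and 38.1% in Y428F cells, whereas Hbegf and Nrg1 stayed higher in both lines and Ereg in Y428F cells. The median log2 difference of the 7 members with counts enough for a fold was 0.22 in WT cells and 0.03 in Y428F cells, beside −0.01 and −0.01 over all genes tested.

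Between the lines, Erbb3 showed the largest difference among the members. It was 4.15-fold higher in Y428F cells with vehicle (log2 2.05, SE 0.159, edgeR quasi-likelihood adjusted p = 1.24e-09) and 4.40-fold higher with PTH (log2 2.14, SE 0.168, adjusted p = 1.44e-09). Btc was lower, at 0.985, 0.657 and 0.819 CPM in Y428F cells with vehicle against 1.85, 1.93 and 2.15 CPM in WT cells. The Btc libraries of the lines did not overlap under either treatment, and the log2 difference was −1.27 with vehicle (SE 0.3001, adjusted p = 0.00155) and −1.31 with PTH (SE 0.309, adjusted p = 0.0015). The difference of Btc rested on 9 to 18 counts in each Y428F library.

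Hbegf and Ereg were higher in Y428F cells under both treatments. Hbegf was 1.62-fold higher with vehicle (log2 0.70, SE 0.112, edgeR adjusted p = 2.75e-05) and 1.26-fold higher with PTH (log2 0.33, SE 0.102, adjusted p = 0.0115), and the latter did not pass the test without the third WT PTH library or without the second Y428F PTH library (adjusted p = 0.0711 and 0.0781, in a range of 0.00188 to 0.0781). Ereg was 3.56-fold higher with PTH, where the lines did not overlap (log2 1.83, SE 0.275, adjusted p = 1.16e-05). With vehicle it was 2.39-fold higher (log2 1.26, SE 0.340, adjusted p = 0.00448) although the lines overlapped through the first WT vehicle library, without which the fold was 4.03 (adjusted p = 5.55e-05, in a range of 2.39e-06 to 0.0322).

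Erbb2 was lower in Y428F cells with PTH (log2 −0.25, SE 0.0613, edgeR adjusted p = 0.00187) and did not pass the test with vehicle (log2 −0.07, SE 0.0614, adjusted p = 0.366). Nrg1 passed the test under neither treatment, with log2 −0.12 (95% interval −0.29 to 0.06) with vehicle and −0.13 (−0.30 to 0.04) with PTH. Thus 3 members were higher and 1 lower of 9 tested with vehicle, beside 22.4% higher and 22.7% lower of all genes tested, and 3 were higher and 2 lower with PTH, beside 22.8% and 23%. These comparisons share the WT and Y428F libraries of the comparisons with PTH.

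The difference in response to PTH between the lines passed the interaction test of edgeR for no member, with 0 of 9 tested at an adjusted p under 0.05, where the difference (Y428F minus WT) was called above 0 for 0.17% and below 0 for 0.243% of all genes, and 0 by DESeq2. At an unadjusted p under 0.05 there was 1 member, Hbegf, with log2 −0.37 (95% interval −0.68 to −0.05, edgeR adjusted p = 0.626), that is a smaller rise in Y428F cells from a higher vehicle level. Erbb2 followed with log2 −0.18 (−0.36 to 0.00, adjusted p = 0.712). The difference was log2 0.57 for Ereg (−0.37 to 1.51), log2 −0.01 for Nrg1 (−0.25 to 0.23) and log2 0.08 for Erbb3 (−0.41 to 0.58). The interval of Nrg1 was the narrowest of the ligands, and that of Ereg spanned both a smaller and a much larger response.

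**Figure D4:**
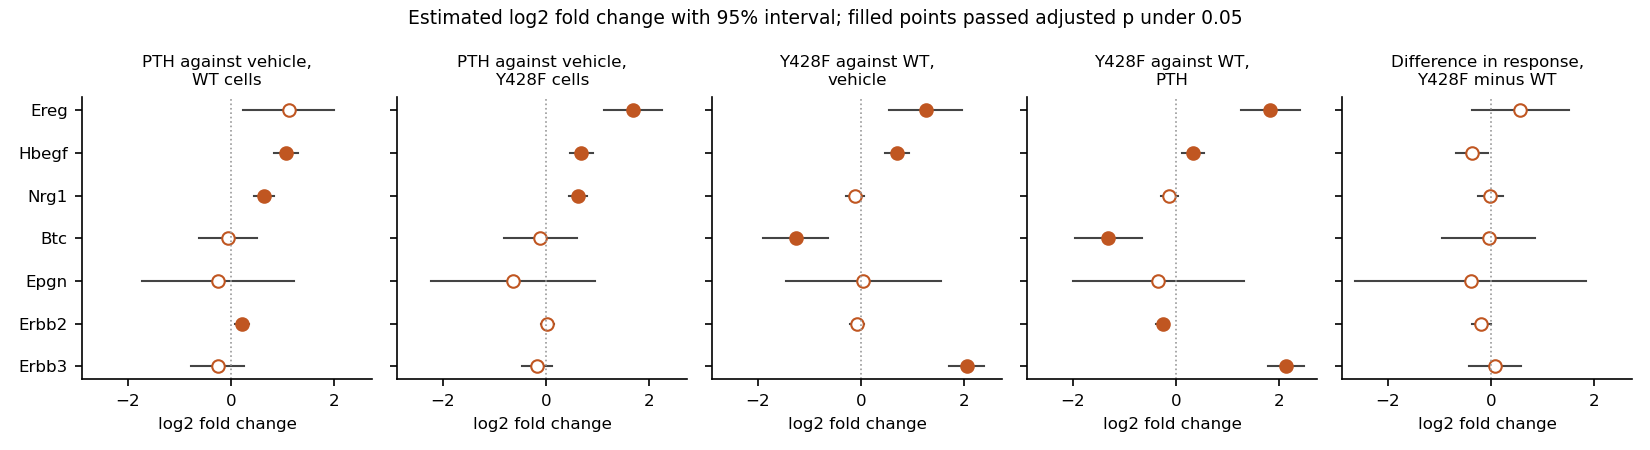
Log2 fold change (points) with its 95% interval (lines) from edgeR for 7 members in the 5 comparisons, with filled points where the adjusted p was under 0.05; Areg, Tgfa and Egfr are left out because they had too few counts. Filled points lie to the right for Hbegf and Nrg1 in both comparisons with PTH and for Erbb3 in both comparisons of the lines, and no point is filled for the difference in response.

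Of the ligand genes, 4 are neighbours on chromosome 5 of GRCm39. Epgn (chr5:91175323-91183074), Ereg (chr5:91222157-91241505) and Areg (chr5:91287451-91296291) lie on the plus strand and Btc (chr5:91505120-91550883) on the minus strand, within 375.561 kb. Their values were unlike: Ereg rose with PTH in Y428F cells, Areg was at 0 in 11 libraries, and Btc was lower in Y428F cells where Ereg was higher. The flanking genes Mthfd2l and Parm1 were at 21.8 ± 0.798 and 35.8 ± 2.36 CPM in WT cells with vehicle (SD, n = 3) and did not pass the test with PTH in either line. Between the lines Parm1 passed the test under neither treatment, and Mthfd2l was higher in Y428F cells with PTH (log2 0.29, adjusted p = 0.00536) and did not pass with vehicle (log2 0.18, adjusted p = 0.0701). Of the chemokine genes beyond Mthfd2l, named after their values were seen, Ppbp was higher in Y428F cells with vehicle (3.74 ± 0.241 CPM against 0.146 ± 0.0836 CPM for WT cells, adjusted p = 8.01e-10), as was Cxcl15 (1.69 ± 0.361 against 0.449 ± 0.407 CPM, adjusted p = 0.00291). Cxcl1 was lower, at 0 against 0.235 ± 0.0785 CPM for WT cells (edgeR adjusted p = 0.00536). This rested on few counts, 49 over the 12 libraries. The WT level was near the 0.152 to 0.185 CPM that a count of 0 allowed. The 250 bases before the annotated start of Ereg and Areg are shown because these adjacent genes had such different values, and because PTH acts in part through cAMP and CREB. They were read from GRCm39 on the plus strand, at chr5:91221907-91222156 and chr5:91287201-91287450, with capitals at matches on either strand to TGACG, TGACGTCA (the CREB palindrome, which contains TGACG on both strands), TGACTCA (AP-1), GGAATG (TEAD) or GGGCGG (SP and KLF factors).

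Ereg: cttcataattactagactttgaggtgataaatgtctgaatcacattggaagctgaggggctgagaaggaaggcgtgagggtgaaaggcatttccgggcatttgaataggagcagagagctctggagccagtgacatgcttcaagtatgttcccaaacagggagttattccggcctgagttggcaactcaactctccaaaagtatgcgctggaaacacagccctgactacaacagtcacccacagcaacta

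Areg: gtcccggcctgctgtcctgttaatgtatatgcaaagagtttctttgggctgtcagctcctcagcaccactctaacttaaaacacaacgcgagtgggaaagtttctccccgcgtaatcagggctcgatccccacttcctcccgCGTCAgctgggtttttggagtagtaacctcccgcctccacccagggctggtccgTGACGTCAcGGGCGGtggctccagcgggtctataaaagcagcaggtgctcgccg

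The Ereg window held none of these letters. The Areg window held TGACGTCA starting 54 bases before the start, GGGCGG at 45 bases and a further TGACG match at 108 bases. Over the windows of 21757 protein-coding genes, TGACGTCA was in 1.7%, TGACG in 18%, TGACTCA in 4.03%, GGAATG in 12.1% and GGGCGG in 36.3%. Of the other members, Btc, Epgn and Erbb2 each held 1 TGACG, Erbb2 also held 1 GGAATG, Tgfa and Erbb3 each held 1 TGACTCA, Erbb3 also held 1 GGGCGG, Nrg1 held 2 GGGCGG, and Egfr held none of these letters. The window of Hbegf is not reported here. The window of Erbb3 lay in annotated exons over all 250 bases and that of Nrg1 over 225. Both windows lay inside the annotated span of their gene and not before its outermost start. The Nrg1 window was chr8:32408882-32409131 in a minus-strand gene at chr8:32303906-33374825. That of Erbb3 was chr10:128425537-128425786 in a minus-strand gene at chr10:128403392-128425811. A match is a run of letters and not a measured site.

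The other genes of the pathway were taken from 5 lists by role. Of the 5 remaining ligand and receptor genes (Egf, Nrg2, Nrg3, Nrg4 and Erbb4), at most 3 could be tested and 0 were called in any comparison by edgeR, with 0 at an unadjusted p under 0.05 and 0 by DESeq2 (1 between the lines with PTH without the second Y428F PTH library). With so few tested, 0 called genes cannot be told from the shares over all genes, which were at most 23% in 1 direction. Of 15 genes of ligand shedding and trafficking, 0 passed the test with PTH in WT cells by edgeR, beside 6.88% higher and 4.91% lower of all genes (4 at an unadjusted p under 0.05, 1 by DESeq2, 3 by library totals or without the first WT vehicle library, and 1 or 2 under either other filter, with the replicate block or with all 12 libraries in 1 fit). In Y428F cells 1 was lower, beside 5.78% of all genes, the metalloprotease gene Adam19 (log2 −0.61, SE 0.119, adjusted p = 0.00149), with 2 called by DESeq2, by library totals, under either other filter on low counts or without the first WT vehicle or the third WT PTH library, and 3 when the Y428F libraries were fitted alone. Adam17, which sheds most of these ligands, was at 88.7 ± 8.01 CPM in WT cells with vehicle and 90.7 ± 2.76 in Y428F cells with vehicle, and passed the test in none of the 5 comparisons. Between the lines with vehicle, 3 of the 15 shedding genes were higher and 9 lower, beside 22.4% higher and 22.7% lower of all genes, with Adam8 higher (log2 1.65, SE 0.126, adjusted p = 9.77e-10) and Bace1 lower (log2 −1.18, SE 0.0659, adjusted p = 6.92e-12), Bace1 being a protease that cleaves neuregulin 1. With PTH, 3 were higher and 8 lower between the lines, beside 22.8% and 23% of all genes. Adam15 was lower with vehicle as well (log2 −0.88, SE 0.0605, adjusted p = 2.03e-10).

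Of 24 adaptor, ERK and PI3K relay genes, 6 were higher and 1 lower with PTH in WT cells, beside 6.88% and 4.91% of all genes, and 4 and 1 in Y428F cells, beside 6.61% and 5.78%, where 2 were called without the first or the third Y428F vehicle library and 3 without the third Y428F PTH library. Pik3r1, a regulatory subunit of PI3K, was 1.58-fold higher in WT cells (log2 0.66, SE 0.0734, edgeR adjusted p = 7.12e-05) and 1.31-fold higher in Y428F cells (adjusted p = 0.00123). The GTPase gene Nras rose in WT cells (log2 0.36, adjusted p = 0.00312) and in Y428F cells (log2 0.25, adjusted p = 0.00371). Between the lines with vehicle, 6 were higher and 7 lower, shares near the 22.4% and 22.7% of all genes, and with PTH 5 were higher and 8 lower, beside 22.8% and 23%. With vehicle the receptor adaptor Shc1 had the smallest p (log2 −1.11, SE 0.0575, adjusted p = 2.37e-12), followed by Pik3r2 (log2 −0.76) and the catalytic subunit Pik3ca (log2 −0.61). The docking protein gene Gab2 was the 1 gene of the list whose response differed between the lines, as it rose in WT cells (log2 0.39, adjusted p = 0.00724) and was at log2 −0.25 in Y428F cells (adjusted p = 0.125), for a difference of log2 −0.63 (SE 0.138, adjusted p = 0.0480), beside 0.243% of all genes with a called difference below 0, a call lost in 14 of 18 alternatives with adjusted p of 0.00217 to 0.179.

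Of 17 genes for receptor inhibitors and degradation, 16 could be tested. With PTH, 2 were higher and 1 lower in each line, beside 6.88% and 4.91% of all genes in WT cells and 6.61% and 5.78% in Y428F cells, and the phosphatase gene Ptpn12 was higher in both (log2 0.45 in WT cells, adjusted p = 0.00196, and log2 0.34 in Y428F cells, adjusted p = 0.00192). In WT cells the endocytic adaptor gene Eps15 was also higher (log2 0.23, adjusted p = 0.0325) and Socs5 lower (log2 −0.30, adjusted p = 0.0484), each of which lost its call in 6 of 13 alternatives (adjusted p up to 0.154 and 0.200), and the list had 1 called gene without the second or the third WT vehicle or the first or second WT PTH library. Between the lines, 2 were higher and 9 lower with vehicle, beside 22.4% and 22.7% of all genes, among them the sorting adaptor gene Stam (log2 −0.62), and 2 and 8 with PTH, beside 22.8% and 23%. Errfi1, an ERK-induced inhibitor of EGFR and ERBB2 kinase activity, was at 133 ± 34.2 CPM with vehicle in WT cells, against 34.3 ± 4.18 CPM for Y428F cells (3.88-fold lower, log2 −1.96, SE 0.133, adjusted p = 1.71e-10), and it was 2.96-fold lower between the lines with PTH. It did not pass the test with PTH in WT cells (log2 −0.45, adjusted p = 0.0551) or in Y428F cells (log2 −0.06, adjusted p = 0.859). Lrig1, which promotes degradation of ERBB receptors, was 3.23-fold lower in Y428F cells with vehicle (log2 −1.69, SE 0.0806, adjusted p = 6.71e-13) and 3.73-fold lower with PTH.

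Of 20 ERK-responsive transcripts, 3 were higher and 1 lower with PTH in WT cells, beside 6.88% and 4.91% of all genes, and 8 and 2 in Y428F cells, beside 6.61% and 5.78%. The number called in WT cells was 7 by library totals and 8 without the first WT vehicle library, and in Y428F cells 6 without the second library of either Y428F group. Dusp5, an ERK phosphatase gene, rose 2.32-fold in WT cells (log2 1.21, SE 0.110, edgeR adjusted p = 1.20e-05) and 2.49-fold in Y428F cells (adjusted p = 3.12e-08), whereas the feedback inhibitor gene Spry1 fell in both (log2 −0.83, adjusted p = 4.11e-05, and log2 −0.53, adjusted p = 0.0243). Myc was higher in WT cells (log2 0.65, adjusted p = 1.46e-04) and in Y428F cells (log2 0.25, adjusted p = 0.0348). In Y428F cells the call of Spry1 was lost in 5 of 19 alternatives (adjusted p up to 0.112) and that of Myc in 4 (up to 0.175). Between the lines 5 were higher and 7 lower with vehicle, beside 22.4% and 22.7% of all genes, and 7 and 7 with PTH, beside 22.8% and 23%. With vehicle Spry1 (log2 −3.22, SE 0.113, adjusted p = 5.38e-15), Spry4 (log2 −4.34) and Egr1 (log2 −1.25) were lower. Responses differed between the lines for Egr2, Ier3 and Junb, each more positive in Y428F cells, beside 0.17% of all genes with a called difference above 0, but the list had 0 called genes without the second or the third Y428F vehicle library, and 1 without the second or the third WT vehicle, second WT PTH, first Y428F vehicle or the third Y428F PTH library. The median log2 difference between the lines with vehicle was −0.24 for the shedding genes, −0.09 for the adaptor and relay genes, −0.20 for the inhibitors and −0.25 for the ERK-responsive transcripts, beside 0.01 over all genes.

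**Figure D5:**
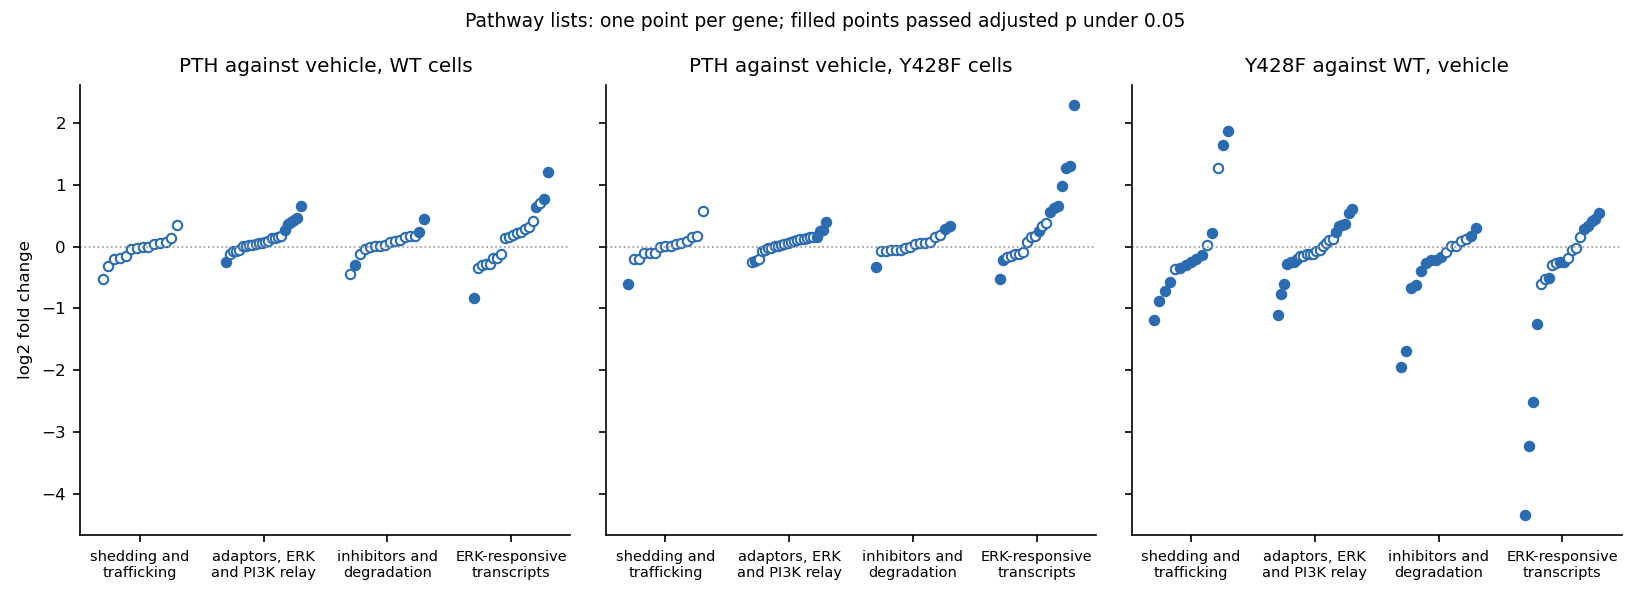
Log2 fold change of each tested gene (points, ordered within a list) of 4 pathway lists for PTH in WT cells, PTH in Y428F cells and Y428F against WT cells with vehicle, with filled points where the adjusted p was under 0.05. With PTH the filled points of the shedding list are 0 in WT cells and 1 in Y428F cells, and between the lines 9 of its points are filled below 0 and 3 above.

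Markers of other cell types also differed between the lines with vehicle, where 22.4% of all genes were higher and 22.7% lower. Cdh5, the most abundant of 4 endothelial markers, had 6 to 20 counts in WT libraries and 100 to 162 in Y428F libraries, and it was the 1 of 4 tested that passed the test with vehicle. The summed level of that list was 0.910 to 1.77 CPM in WT cells and 6.12 to 9.94 CPM in Y428F cells, and without Cdh5 it was 0.354 to 0.815 CPM in WT cells and 0.505 to 1.09 CPM in Y428F cells. Of 5 epithelial markers, 3 were tested and 2 were higher. The epithelial sum was 0.483 to 1.19 CPM in WT cells and 2.95 to 4.90 CPM in Y428F cells. It was mostly Krt8, and Epcam was at 0. Of 6 haematopoietic markers, 3 were tested and Ptprc alone was higher. The haematopoietic sum was 0.677 to 1.69 CPM in WT cells and 2.53 to 3.93 CPM in Y428F cells, with Cd3e at 0. The stromal list was lower for 7 of 10 genes and higher for Lepr, with a sum of 19930 to 23857 CPM in WT cells and 10170 to 14752 CPM in Y428F cells, Col1a2 being its most abundant gene. Of 4 adipocyte markers, 3 were tested and Fabp4 was lower. The adipocyte sum was 23.5 to 33.9 CPM in WT cells and 6.35 to 8.76 CPM in Y428F cells. The part of these markers in the line differences of Erbb3, Ereg, Hbegf and Btc was not tested. With PTH in WT cells, 1 of 9 stromal markers tested was lower, Pdgfra (log2 −0.59, edgeR adjusted p = 0.00146), and no marker of the other lists passed. Of all genes tested, 6.88% were higher and 4.91% lower in that comparison. With PTH in Y428F cells 2 of 10 stromal markers tested were lower, namely Pdgfra (log2 −0.73, edgeR adjusted p = 7.17e-05) and Col1a1 (log2 −0.33, adjusted p = 0.0218). No marker of the other lists passed the test there, beside 6.61% higher and 5.78% lower of all genes. The stromal sum there was 13710 to 14752 CPM with vehicle and 10170 to 12919 CPM with PTH, without overlap, and the part of this in the values of Ereg, Hbegf and Nrg1 was not tested.

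Across the 12 libraries, the genes most like Nrg1 in log2 CPM, of 11218 compared, were Senp5 (Pearson r = 0.961), Nab2 (r = 0.960) and Samd4 (r = 0.960). Nab2 was at 59.7 ± 8.72 CPM in WT cells with vehicle and 166 ± 5.50 with PTH (SD, n = 3), and at 39.8 ± 1.87 and 130 ± 2.83 CPM in Y428F cells. The genes most like Erbb2 were Anxa6 (r = 0.959), Mapkbp1 (r = 0.955) and Usp4 (r = 0.955). These values describe 12 libraries that share 4 groups.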

How the data were processed

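Poly(A) RNA libraries of WT and Y428F W-20 cells (n = 3 a group) were used. Per the labels and the study's methods, the authors aligned reads with STAR 2.7.10b to GRCm39 and deposited RSEM expected counts per gene, not scaled for library size. Of all values in the matrix, zeros included, 6.32% were not whole. Whether counting used strand is not given in the sources used here. Expected counts were rounded to whole numbers. Genes whose counts summed to 10 or more were fitted in edgeR 4.0.16 (R 4.3.3; TMM scaling, quasi-likelihood test, Benjamini-Hochberg adjustment over all genes tested), on the 6 WT libraries for the PTH response of WT cells and on all 12 libraries otherwise. Genes with an adjusted p under 0.05 were called. CPM used TMM scaling over the 12 libraries. Symbols, positions and exon lengths came from GENCODE vM39, which matched 56236 gene identifiers and left 744 unmatched. Named pathway genes were, in each list and with a mean of at least 2 CPM, the 3 smallest adjusted p with PTH in WT cells, the 3 smallest between the lines with vehicle and those whose response differed, with Adam17 and Errfi1 always named and 1 gene not reported here. The genes most alike were the 3 with the highest Pearson r over log2 CPM with a prior of 2. The members, lists and tests were chosen with earlier results of these data known. Each alternative changed 1 choice, except DESeq2 1.42.0, which changed the test and the scaling, and a stricter call that set the p and fold thresholds together, and those for the pathway lists were added after the data were seen. The fits were tested on simulated data.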

Additional observations from a re-analysis of the deposited data

Results flagged for a closer look

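The difference in response to PTH between the lines passed the interaction test of edgeR for 0 members of the family, and for 1 of 24 adaptor and relay genes and 3 of 20 ERK-responsive transcripts, beside 0.17% of all genes above 0 and 0.243% below. These 4 genes were named because they passed that test. The log2 difference in response (Y428F minus WT) was 1.89 for Egr2 (adjusted p = 0.0289), with 44, 95 and 75 counts in WT cells with vehicle, 104, 78 and 78 with PTH, 14, 13 and 11 in Y428F cells with vehicle and 61, 65 and 54 with PTH. It was 0.91 for Ier3 (adjusted p = 0.0169) and 0.69 for Junb (adjusted p = 0.0215). It was −0.63 for Gab2 (adjusted p = 0.0480). Over the 18 alternatives the call was lost in 10 for Egr2, 4 for Ier3, 6 for Junb and 14 for Gab2, with adjusted p up to 0.117, 0.0621, 0.0794 and 0.179, and the direction was kept in all of them. The groups of 3 libraries were not tested for outlying values.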

How the results depend on the processing

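Of 607 member values under the alternatives, 570 kept their direction and their side of the threshold and 23 changed sign, 0 of them values that had passed the test. The numbers of called members stayed within 1.5 times, except that under an adjusted p under 0.01 with a log2 difference beyond 0.3 the lines with PTH differed in 3 members and not 5. Without each library in turn the number called was 2 to 3 with PTH in WT cells, 3 with PTH in Y428F cells, 4 to 5 between the lines with vehicle, 4 to 6 with PTH (Areg being the added member) and 0 for the difference in response. Of all genes, leaving out 1 library gave 613 to 1305 higher and 292 to 906 lower with PTH in WT cells (1072 and 765 with all libraries), 803 to 1329 and 616 to 1186 in Y428F cells (1170 and 1022), and 6 to 37 and 18 to 57 for the difference in response (30 and 43), which were 52 and 72 by DESeq2 and 96 and 120 with no filter on low counts. The stricter threshold gave 544 and 277, 535 and 407, and 6 and 16, respectively. Between the lines with vehicle it called 7 shedding, 8 relay and 6 inhibitor genes and not 12, 13 and 11, and with PTH 7, 6 and 5 and not 11, 13 and 10. Of all 17691 genes tested between the lines with vehicle, it called 2674 higher and 2818 lower and not 3966 and 4020. With PTH the stricter threshold called 2686 and 2900 and not 4026 and 4067. It called 1 inhibitor gene with PTH in WT cells and not 3, and in Y428F cells 1 relay gene and not 5 and 6 ERK-responsive transcripts and not 10. For the difference in response it called 0 ERK-responsive transcripts and not 3, against 6 with no filter on low counts. By library totals 1216 genes were lower with PTH in WT cells, and Erbb2 with PTH in Y428F cells was at log2 −0.0121. Leaving out 1 library, signs changed for Btc with PTH in WT cells (−0.14 to 0.10) and in Y428F cells (−0.29 to 0.11), Epgn with PTH in WT cells (−0.56 to 0.0719), between the lines with vehicle (−0.27 to 0.36) and with PTH (−1.18 to 0.22), and Erbb2 with PTH in Y428F cells (−0.0140 to 0.0758). For the difference in response they changed for Btc (−0.23 to 0.17), Epgn (−1.23 to 0.17), Erbb3 (−0.11 to 0.41), Ereg (−0.19 to 0.84) and Nrg1 (−0.0798 to 0.0675). The cause was not tested. Nrg1 between the lines with vehicle passed the test without the first WT vehicle library alone (log2 −0.21, adjusted p = 0.0399). With the replicate number as a block, Ereg with PTH in WT cells passed the test (log2 1.21, adjusted p = 0.0315) and Erbb2 did not (log2 0.22, adjusted p = 0.0819), so 3 members were still called, and no other call of a member changed. Libraries with the same number did not deviate together on average (mean r = 0.00224 over 18 pairs, −0.146 to 0.242). Pairs with other numbers had a mean r of −0.000973 (36 pairs, −0.255 to 0.210). With 3 libraries a group, these values cannot tell whether the numbers pair the libraries. Depth limited Areg, Tgfa, Egfr and Epgn, which had at most 10 counts in any library.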
